A study of Mus musculus with 5 samples.

Results

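ER chaperones and genes of the unfolded protein response (31 genes of the 53700 in the count table) were followed in MutuDC cells during 24 h with Fanchinoline. The 31 genes were taken by name: chaperones and folding enzymes of the endoplasmic reticulum (ER), the sensors of the unfolded protein response with the transcription factor gene Xbp1, parts of ER-associated degradation and subunits of the translocon. All 31 were found, and all reached 10 CPM (counts scaled to library size and composition) in at least 1 library, as did 8846 genes in all. The 31 genes held 1.40% of all counts in vehicle, 1.30% in the 2 h library, 1.22% in the 6 h, 1.19% in the 12 h and 1.25% in the 24 h library.

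MutuDC is an established mouse line that resembles conventional dendritic cells of type 1 (cDC1), the dendritic cells that specialise in cross-presentation. It derives from splenic tumours of mice that carry the simian virus large T antigen under the CD11c promoter, so it is 1 immortalised line rather than primary cells. Poly-A RNA was sequenced at vehicle (0 h) and after 2, 6, 12 and 24 h with Fanchinoline, a compound spelled here as in the labels. The labels call the 0 h cells a vehicle control while the design text calls the controls untreated, and the sources used here give no dose. All 5 libraries come from the same line, and no genetic change is given for any of them; they differ in exposure and in hours, which change together. The count table has 1 library per time point, so replicate scatter is unknown and pairs of libraries are compared without p-values.

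Total counts lay between 33568526 and 42854511 per library. Of 10 cDC1 markers, 9 reached 10 CPM, with a summed level of 5483 to 7919 CPM in treated libraries and 6213 CPM in vehicle. Single markers moved with time: Cd8a was 2-fold lower at 24 h over vehicle (log2 ratio -1.24), Batf3 stood at -0.72 and Flt3 at -0.58. Of the 9 markers compared, 7 were below vehicle at 24 h and 2 above, the highest at 0.47. At 2 h 5 were below and 4 above, the highest at 0.99. In a trend over the 4 treated libraries 6 of the 10 fell (edgeR, adjusted p under 0.05), beside 6.73% of all genes. The summed level of 5 macrophage markers was 225 to 296 CPM in treated libraries and 280.2 CPM in vehicle, with Mertk at 0 in all 5 libraries; at 24 h over vehicle Csf1r stood at 0.93 and Cd68 at -0.80. The part of these shifts in the ER gene results was not tested. Of 4 lymphocyte markers 3 were at 0 in every library, and the 4 fibroblast markers together stayed at or below 0.427 CPM. Of 4 plasmacytoid dendritic cell markers 2 were at 0 in every library and 1 reached 10 CPM. Their summed level was 21.3 CPM in vehicle and 21.0 to 27.6 CPM in treated libraries. The 1 compared stood at 0.37 at 24 h over vehicle, and at -0.13 after the adjustment for length and GC described below. It rose in the trend over the 4 treated libraries, beside 6.98% of all genes. In bulk libraries, fewer cells of a type and less RNA per cell cannot be told apart.

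The ER folds and modifies proteins bound for the cell surface, for secretion and for other compartments. BiP, the Hsp70 of the ER, holds unfolded chains, while calnexin and calreticulin hold chains that carry sugar trees and work with the disulfide isomerase ERp57. When unfolded protein builds up, 3 sensors (IRE1, PERK and ATF6) start the unfolded protein response: IRE1 splices Xbp1 mRNA, PERK slows translation and favours the making of ATF4, and ATF6 is cut to release a transcription factor. XBP1 and ATF6 raise transcription of chaperones and of degradation genes, many of them through an ER stress response element in their promoters. In dendritic cells, cDC1 in particular, IRE1 and XBP1 are known to be active without added stress, and the ER folds the class I molecules that present antigen.

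The stretches below show the ER stress response element, or in Herpud1 the related ERSE-II, in 6 promoters whose genes differed in direction or in size. The element was searched on both strands as CCAAT and CCACG with any 9 bases between them, the related ERSE-II as ATTGG and CCACG with any 1 base between them, and the UPRE core as TGACGTGG, in windows of 250 bases before to 50 bases after the gene's start. The sequences are RefSeq's, on build GRCm38.p6, and run 5′ to 3′ on the gene's strand, with 20 bases on each side of the motif. Capitals mark the letters the motif fixes.
Hspa5, chr2:34772005-34772063, plus strand: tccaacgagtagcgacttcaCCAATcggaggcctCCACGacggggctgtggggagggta
Calr, chr8:84847055-84847113, minus strand: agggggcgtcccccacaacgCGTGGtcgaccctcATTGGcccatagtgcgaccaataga
Canx, chr11:50325780-50325838, minus strand: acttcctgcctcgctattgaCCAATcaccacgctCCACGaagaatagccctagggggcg
Pdia6, chr12:17266471-17266529, plus strand: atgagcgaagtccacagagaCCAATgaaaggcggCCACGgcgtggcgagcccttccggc
Creld2, chr15:88819500-88819558, plus strand: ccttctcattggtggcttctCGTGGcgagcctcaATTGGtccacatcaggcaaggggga
Herpud1 (ERSE-II), chr8:94386357-94386407, plus strand: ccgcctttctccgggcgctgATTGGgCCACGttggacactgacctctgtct

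In Calr and Creld2 the element lies in the reverse orientation, so CGTGG comes first. Of the 25 genes with a promoter in the table, 8 held the full element (32%), namely Calr, Canx, Creld2, Dnajc3, Hsp90b1, Hspa5, Pdia6 and Syvn1, with 2 copies in Hsp90b1; no matches overlapped. The same element was in 37 of 27025 symbols (0.137%). ERSE-II was in Herpud1 and Dnajb11, 2 of the 25 (8%), against 12 of 27025 symbols (0.0444%). The UPRE core was in none of the 25, and in 0.714% of symbols. A match is a run of letters and not a measured binding site. Hyou1, Ssr2, Atf6, Sec61a1, Derl1 and Manf had no entry.

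None of the 31 genes differed by 2-fold from vehicle, by more than counting error, at any time with Fanchinoline. Calls needed a log2 ratio of at least 1 in size and an exact 95% interval of the ratio that excluded 1; such calls set single libraries side by side rather than conditions. The interval holds only the error of counting, and PCR copies of 1 molecule are not independent. Against this count of 0 of 31, the same rule took 1.33% of all genes compared in the 2 h library, 1.94% in the 6 h, 3.07% in the 12 h and 4.09% in the 24 h library. Between 24 h and 2 h it took 0 of 31 and 1.55% of all genes. Manf came nearest among the lower genes, at a log2 ratio of -0.95 at 24 h over vehicle, and Ern1 among the higher ones, at 0.95. All 4 comparisons with vehicle use the same single vehicle library, so they are not independent of each other.

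With a lower limit of 1.5-fold, few genes passed and each count was close to or below the share among all genes. At 2 h over vehicle Ern1 and Atf6 were higher (2 of 31, beside 7.20% of all genes) and Dnajb9 was lower (1 of 31, beside 3.62%). At 6 h Sel1l and Ern1 were higher (2, beside 9.73%) and Manf was lower (1, beside 3.83%). At 12 h Sel1l, Atf6 and Ern1 were higher (3, beside 10.6%) and Pdia3 and Manf were lower (2, beside 5.55%). At 24 h Sel1l, Atf6 and Ern1 were again higher (3, beside 12.2%), and Pdia3, Manf and Sec61b were lower (3, beside 8.87%). Between 24 h and 2 h no gene of the 31 passed in either direction, beside 3.98% of all genes higher and 3.80% lower.

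Small differences below vehicle were more common than differences above it. The ratio lay below vehicle for 19 of 31 genes at 2 h and for 20 of 31 at 6, 12 and 24 h, against 4145, 4024, 4249 and 4424 of 8846 genes. Median log2 ratios over the 31 genes were -0.07 after 2 h, -0.17 after 6 h and -0.26 after both 12 and 24 h, while the medians of all genes compared were 0.03, 0.04, 0.02 and -0.0002. Their summed level was 14330 CPM in vehicle, 13142 CPM at 2 h, 12272 CPM at 6 h, 12002 CPM at 12 h and 11892 CPM at 24 h. Vehicle was the highest of the 5 libraries for 16 of the 31 genes, against 33.4% of all genes, and 24 h was the lowest for 11, against 29.7%.

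**Figure D1:**
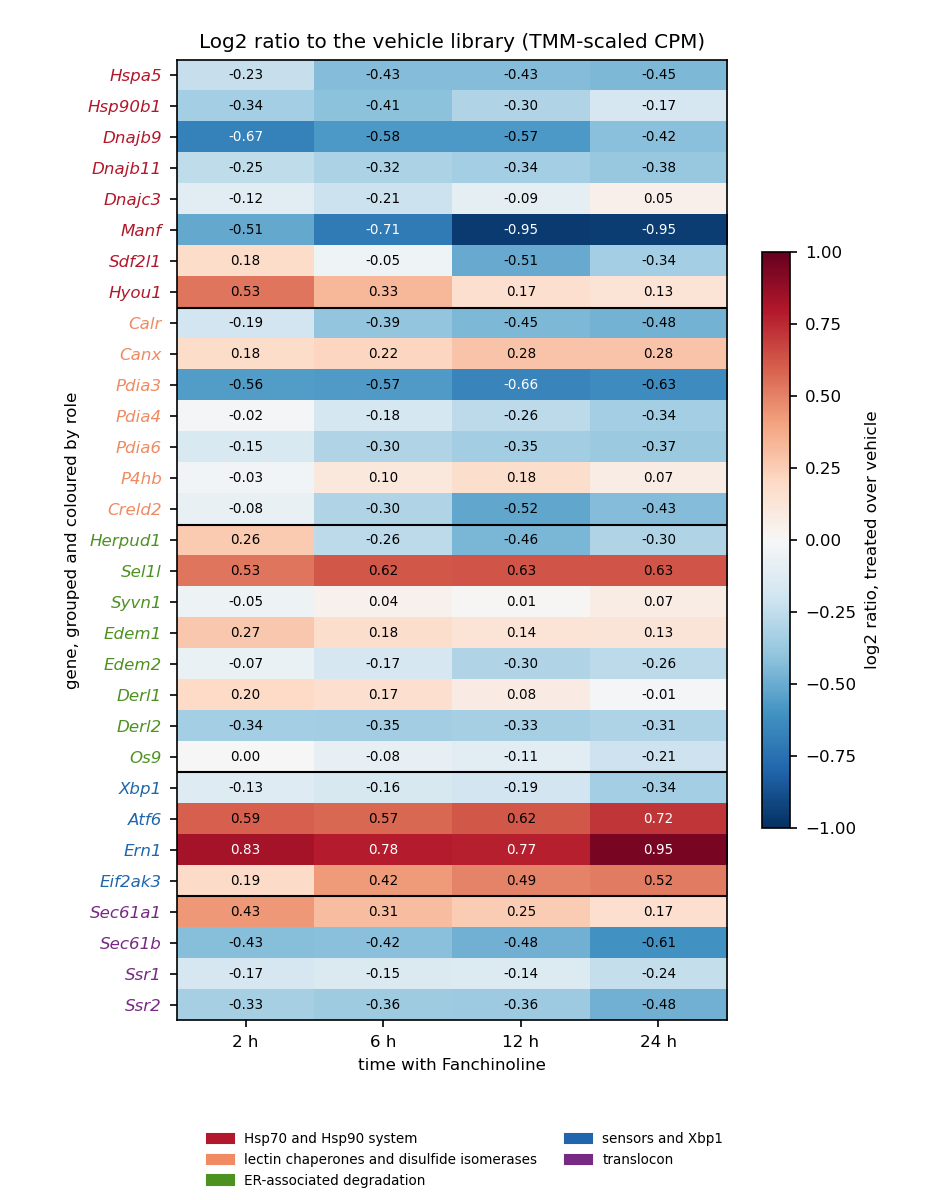
Log2 ratio of each of the 31 genes (rows, grouped and coloured by role) at 2, 6, 12 and 24 h with Fanchinoline over vehicle (columns); colour and printed number both give the log2 ratio of scaled CPM, with 1 library per time point. Manf is the lowest at 24 h (-0.95) and Ern1 the highest (0.95), and no cell reaches 1 in size.

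Against vehicle, all 4 treated libraries held relatively more counts from long than from short transcripts, and this touches every ratio to vehicle. With genes cut into quintiles by transcript length, the longest had a median log2 ratio to vehicle above that of the shortest by 0.57 for the 2 h library, 0.65 for 6 h, 0.69 for 12 h and 0.75 for 24 h. Between 24 h and 2 h this gap was 0.16. Across the 31 genes the log2 ratio at 24 h over vehicle went with log2 transcript length (Pearson r = 0.68, a description over genes that share the same 2 libraries), as it did across 8835 genes with a length (r = 0.47). Between 24 h and 2 h r was 0.52 over the 31 genes and 0.13 over 8835. The 31 genes were somewhat short, with a median longest transcript of 2861 bases and a range of 723 to 9333, against 3442 bases for all genes compared. Ratios were therefore also given after removal of a smooth dependence on length and GC content fitted over all genes compared ("adjusted for length and GC"). Whether the length balance reflects the RNA or the cells was not tested.

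After this adjustment no gene of the 31 was 1.5-fold higher than vehicle at any time. Among all 8846 genes 173, 277, 412 and 518 were higher at 2, 6, 12 and 24 h. At 2 h none was lower either, beside 137 of 8846. At 6, 12 and 24 h 2 of 31 were lower each time, beside 170, 349 and 578 of 8846. Manf stayed below the limit at 6, 12 and 24 h, with adjusted log2 ratios of -0.59, -0.82 and -0.80. The only other gene past it was Ssr1 at 6, 12 and 24 h, with an adjusted log2 ratio of -0.79 at 24 h and an unadjusted one of -0.24; its longest annotated transcript has 9333 bases, the most of the 31. Adjusted medians over the 31 genes over vehicle were -0.04 after 2 h, -0.10 after 6 h, -0.18 after 12 h and -0.16 after 24 h.

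**Figure D2:**
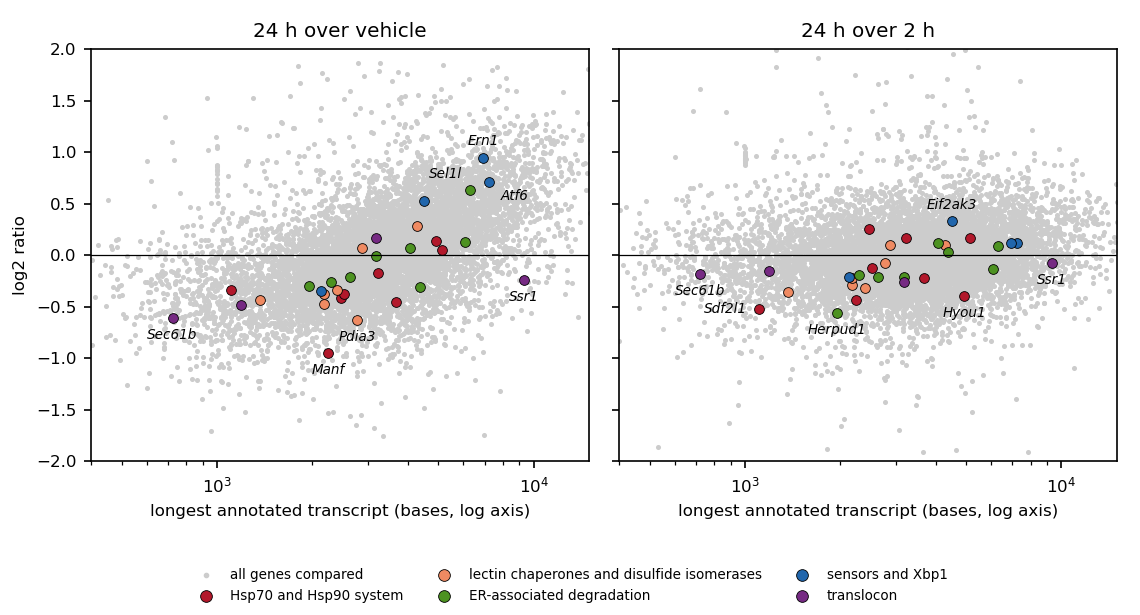
Log2 ratio (y axis) against the longest annotated transcript in bases (x axis, log scale) for all genes compared (grey) and the 31 genes (coloured by role), at 24 h over vehicle on the left and 24 h over 2 h on the right; 90 and 76 genes lie outside the axes. Pearson r with log2 length over the 31 genes is 0.68 on the left and 0.52 on the right. Over all 8835 genes with a length it is 0.47 and 0.13.

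Among the Hsp70 and Hsp90 system of the ER, the lowest gene was Manf, which encodes a small secreted protein that binds BiP and protects cells under ER stress. Manf (ENSMUSG00000032575, chr9:106838312-106891979 on GRCm38, minus strand) had 322 CPM in vehicle, 226 CPM at 2 h, 197 CPM at 6 h, 166 CPM at 12 h and 167 CPM at 24 h. Vehicle was highest, and the 12 h and 24 h libraries were the lowest and nearly equal. Its log2 ratios over vehicle were -0.51, -0.71, -0.95 and -0.95 at 2, 6, 12 and 24 h, with an interval of -0.99 to -0.91 at 24 h. Only 1.61% of all genes compared had a lower ratio at 24 h. Manf shares 9.25% of its exon bases with other genes, 14 bases of them with Rbm15b on the same strand and the rest with Dcaf1 and 4930524O07Rik on the other. At 24 h over vehicle Rbm15b and Dcaf1 had log2 ratios of 0.13 and 0.33, above 0 where Manf was below, and 4930524O07Rik stayed at or below 0.402 CPM in every library.

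The trend test asked whether a gene moved steadily over all 5 libraries; it fitted a slope on log2(hours + 1) by edgeR's quasi-likelihood method, with Benjamini-Hochberg adjustment over 13915 genes and the scatter around the line as its spread. Of the 31 genes, Manf fell (slope -0.21, SE 0.0304, adjusted p = 0.0197 by edgeR) and Eif2ak3 rose (slope 0.121, SE 0.0274, adjusted p = 0.0379 by edgeR). That is 1 of 31 down, beside 4.05% of all genes tested, and 1 of 31 up, beside 5.35%. Without adjustment 19 of the 31 had p below 0.05, as had 4122 of 13915 genes. Exposure and hours in culture cannot be told apart in this test. Both calls were lost without the 12 h or the 24 h library. Among all genes, 1309 calls became 0 without 12 h and 28 without 24 h. DESeq2's Wald test made 13 calls among the 31 and 2449 among all genes.

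BiP itself, encoded by Hspa5 (ENSMUSG00000026864, chr2:34771970-34777547, plus strand), had 1468 CPM in vehicle, 1254 CPM at 2 h, 1087 CPM at 6 h, 1088 CPM at 12 h and 1073 CPM at 24 h. The 3 later libraries lay close together and below the 2 earlier ones. Its log2 ratio at 24 h over vehicle was -0.45 (interval -0.47 to -0.43), and -0.46 after adjustment for length and GC, with adjusted p = 0.0663 for the trend by edgeR. Hsp90b1, which encodes the ER Hsp90 GRP94, was lowest at 6 h: 1129.8 CPM in vehicle, 892 CPM at 2 h, 849.6 CPM at 6 h, 916 CPM at 12 h and 1004 CPM at 24 h. Its log2 ratio was -0.17 at 24 h over vehicle and 0.17 at 24 h over 2 h, so it stood between its vehicle and its 2 h level at the end. Of its exon bases 15.7% are shared with other genes.

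The J-domain partners of BiP did not move alike. Dnajb9 encodes ERdj4, a co-chaperone that restrains IRE1 and is widely used as a reporter of IRE1 and XBP1 activity. It had 27.7 CPM in vehicle, 17.4 CPM at 2 h, 18.6 CPM at 6 h, 18.6 CPM at 12 h and 20.7 CPM at 24 h. All 4 treated libraries were below vehicle, the lowest being 2 h (log2 ratio -0.67, interval -0.82 to -0.53). Its ratio after adjustment was -0.28 at 2 h and -0.21 at 24 h. Dnajb11, for ERdj3, had log2 ratios of -0.25 at 2 h and -0.38 at 24 h, at 229 and 211 CPM against 274 CPM in vehicle. Dnajc3, for the co-chaperone p58IPK, had -0.12 at 2 h and 0.05 at 24 h over vehicle, and -0.16 at 24 h after adjustment.

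Sdf2l1 and Hyou1 were highest in the 2 h library. Sdf2l1, whose product sits with ERdj3 in BiP complexes, had 242 CPM in vehicle, 274 CPM at 2 h, 234 CPM at 6 h, 169.9 CPM at 12 h and 191 CPM at 24 h. Hyou1, which encodes GRP170, a large Hsp70 relative that exchanges nucleotide on BiP, had 375 CPM in vehicle, 543 CPM at 2 h, 472 CPM at 6 h, 421 CPM at 12 h and 412 CPM at 24 h. Both were lower at 6, 12 and 24 h than at 2 h, and Sdf2l1 ended below vehicle before adjustment. Their log2 ratios over vehicle were 0.18 and 0.53 at 2 h, and -0.34 and 0.13 at 24 h. After adjustment for length and GC the 24 h ratios to vehicle were -0.05 for Sdf2l1 and -0.10 for Hyou1, so the sign for Hyou1 depends on that step. Over the 8 genes of this role the summed level was 3874 CPM in vehicle, 3469.7 CPM at 2 h, 3108 CPM at 6 h, 3029.7 CPM at 12 h and 3115 CPM at 24 h.

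**Figure D3:**
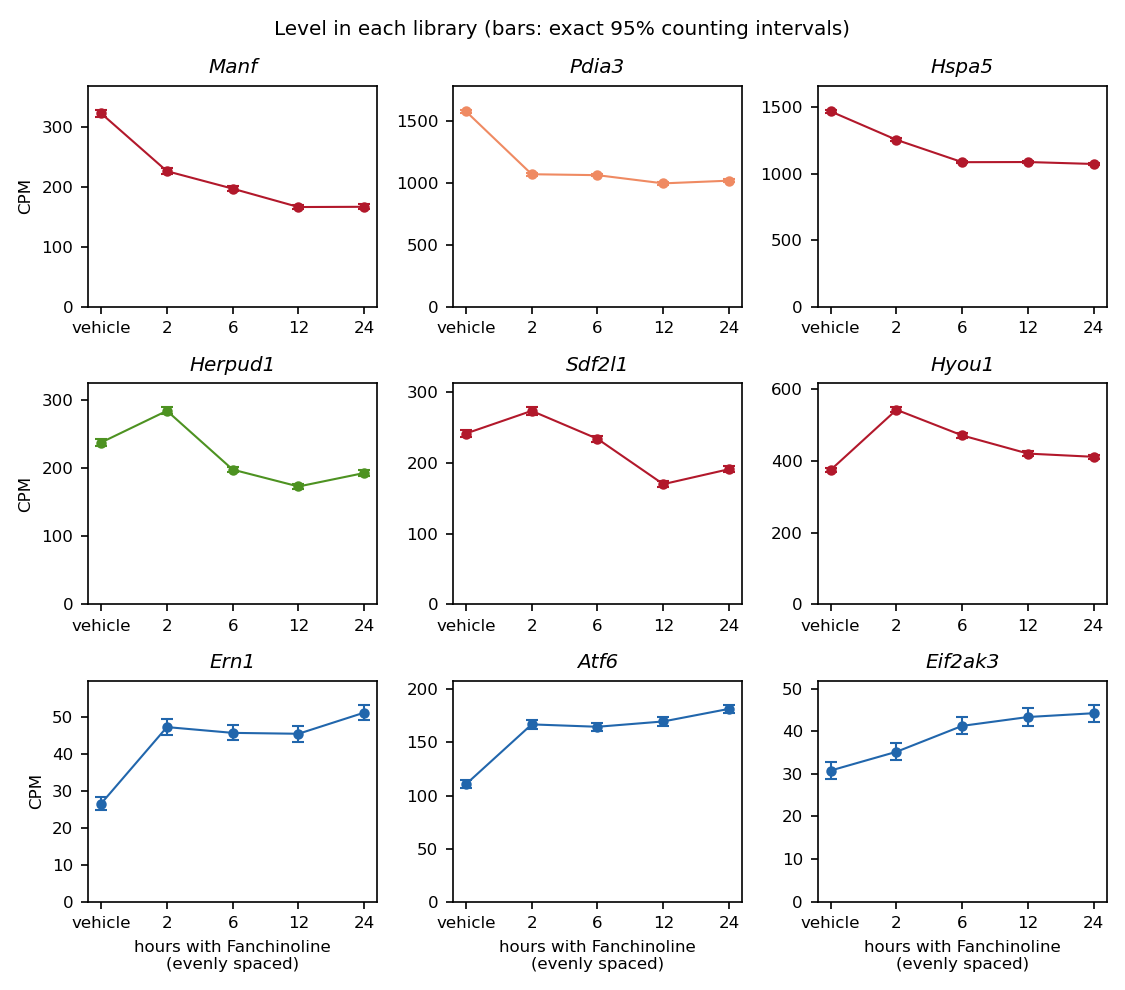
Scaled CPM (y axis, from 0) of 9 of the genes in each library, with vehicle at the left and hours with Fanchinoline after it, evenly spaced; points are single libraries and bars exact 95% counting intervals. Manf, Pdia3 and Hspa5 are highest in vehicle, Herpud1, Sdf2l1 and Hyou1 at 2 h, and Ern1 and Atf6 are higher in all 4 treated libraries than in vehicle, as is Eif2ak3.

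Of the 7 lectin chaperones and disulfide isomerases, 5 were below vehicle at 24 h. Pdia3 encodes ERp57, the isomerase that works with calnexin and calreticulin and sits in the peptide-loading complex of class I molecules. It had 1582 CPM in vehicle, 1073 CPM at 2 h, 1065 CPM at 6 h, 999 CPM at 12 h and 1021 CPM at 24 h. Most of the gap was between vehicle and 2 h, and the treated libraries lay close together. The log2 ratio was -0.56 at 2 h (interval -0.58 to -0.54) and -0.63 at 24 h over vehicle, and -0.07 at 24 h over 2 h (interval -0.09 to -0.05). After adjustment the 24 h ratio to vehicle was -0.54.

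Calr, for calreticulin, had the most counts of the 31 genes and also the highest level per length, at 1013 CPM per kilobase of transcript at 24 h and 1409 in vehicle. It had 3076 CPM in vehicle, 2696 CPM at 2 h, 2340.3 CPM at 6 h, 2247 CPM at 12 h and 2212 CPM at 24 h, lower in each library than in the one before. Its log2 ratio at 24 h over vehicle was -0.48 and its adjusted p for the trend was 0.052 by edgeR, just outside the threshold of 0.05. Canx, for the membrane-bound relative calnexin, went the other way, with 505 CPM at 24 h and 415 CPM in vehicle (log2 ratio 0.28, and 0.19 after adjustment). Both genes carry an ER stress response element, shown above.

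Pdia4, Pdia6 and P4hb encode further disulfide isomerases, and Creld2 a disulfide isomerase-like protein induced by ER stress. Pdia6 had 718 CPM at 24 h and 929 CPM in vehicle (log2 ratio -0.37). Pdia4 had 256 CPM at 24 h and 324 CPM in vehicle (-0.34), and at 2 h it was at vehicle level (-0.02). Creld2 had 231 CPM in vehicle, 219 CPM at 2 h, 188 CPM at 6 h, 162 CPM at 12 h and 171 CPM at 24 h, with a log2 ratio of -0.43 at 24 h over vehicle. After adjustment for length and GC the 24 h ratios were -0.23 for Pdia6 and -0.21 for both Pdia4 and Creld2. P4hb, the founding member of the family, kept within 0.18 log2 units of vehicle at every time. The summed level over the 7 genes was 7943 CPM in vehicle, 6977 CPM at 2 h, 6607 CPM at 6 h, 6479 CPM at 12 h and 6342 CPM at 24 h.

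Genes of ER-associated degradation, which draws misfolded proteins out of the ER for the proteasome, divided. Herpud1 encodes HERP, an ER stress-induced partner of the HRD1 ligase complex. Herpud1 (ENSMUSG00000031770, chr8:94386438-94395377, plus strand) had 238 CPM in vehicle, 284 CPM at 2 h, 198 CPM at 6 h, 173 CPM at 12 h and 193 CPM at 24 h. It was above vehicle only at 2 h, with log2 ratios of 0.26 at 2 h and -0.30 at 24 h over vehicle, and -0.12 at 24 h after adjustment. Sel1l, for the adaptor of the HRD1 ligase, had 138 CPM in vehicle, 199 CPM at 2 h, 212 CPM at 6 h, 213 CPM at 12 h and 213 CPM at 24 h. Its log2 ratio over vehicle of 0.63 at 24 h was 0.22 after adjustment for length and GC. Syvn1, for HRD1 itself, stayed between 75.9 and 82.6 CPM in all 5 libraries.

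The other 5 genes of this role stood close to vehicle throughout, the farthest being Derl2 at 6 h with a log2 ratio of -0.35. Edem1 and Edem2 encode mannose-trimming factors that mark glycoproteins for degradation, and their log2 ratios at 24 h over vehicle were 0.13 and -0.26; after adjustment Edem1 was at -0.21, a change of sign. Derl1 and Derl2 encode derlins of the retrotranslocation channel, at -0.01 and -0.31. Os9 encodes a lectin that recognises the trimmed sugar, at -0.21. The summed level of the 8 genes was highest at 2 h and close to vehicle at 12 and 24 h, with 1144 CPM in vehicle, 1286 CPM at 2 h, 1184 CPM at 6 h, 1134 CPM at 12 h and 1135 CPM at 24 h.

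Transcripts of the 3 sensors were above vehicle in every treated library, except that Eif2ak3 at 2 h was at -0.02 after adjustment for length and GC. Ern1 (ENSMUSG00000020715, chr11:106394650-106487852, minus strand) encodes IRE1 alpha and had 26.5 CPM in vehicle, 47.2 CPM at 2 h, 45.6 CPM at 6 h, 45.4 CPM at 12 h and 51.1 CPM at 24 h. The gap was between vehicle and 2 h, after which the 4 treated libraries were close. Its log2 ratio was 0.83 at 2 h (interval 0.71 to 0.95) and 0.95 at 24 h (interval 0.83 to 1.06) over vehicle. After adjustment for length and GC these were 0.40 and 0.48. With scaling to total counts alone the 24 h ratio was 1.05, which passes the 2-fold rule. Atf6 had 111 CPM in vehicle, 167 CPM at 2 h, 165 CPM at 6 h, 169.8 CPM at 12 h and 182 CPM at 24 h. Its log2 ratio of 0.72 at 24 h over vehicle was 0.27 after adjustment. The transcripts of Ern1 and Atf6 are long, with 6946 and 7246 bases.

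Eif2ak3 (ENSMUSG00000031668, chr6:70844515-70905245, plus strand) encodes PERK, the sensor that phosphorylates the initiation factor eIF2 alpha. It had 30.8 CPM in vehicle, 35.2 CPM at 2 h, 41.3 CPM at 6 h, 43.3 CPM at 12 h and 44.2 CPM at 24 h, higher in each library than in the one before. Its log2 ratio was 0.52 at 24 h over vehicle (interval 0.41 to 0.63), 0.35 after adjustment, and 0.33 at 24 h over 2 h. Xbp1, the target of IRE1's splicing, had 166 CPM in vehicle, 152 CPM at 2 h, 149 CPM at 6 h, 145 CPM at 12 h and 131 CPM at 24 h, for a log2 ratio of -0.34 at 24 h over vehicle (-0.19 after adjustment). Gene counts do not separate the spliced from the unspliced form, and sensor transcripts say nothing of sensor activity. Per length, the sensors were among the least abundant of the 31 genes: Ern1 stood at 7.36 and Eif2ak3 at 9.80 CPM per kilobase at 24 h.

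The translocon passes nascent chains into the ER. Sec61b, for the small beta subunit of its channel, had 115 CPM in vehicle, 85.5 CPM at 2 h, 86.0 CPM at 6 h, 82.3 CPM at 12 h and 75.4 CPM at 24 h. All 4 treated libraries were below vehicle, and its adjusted p for the trend was 0.0501 by edgeR. The log2 ratio of -0.61 at 24 h over vehicle was -0.28 after adjustment for length and GC; its longest transcript of 723 bases is the shortest of the 31. Sec61a1, for the pore itself, was highest at 2 h, with 405 CPM, and had 338 CPM at 24 h and 300.2 CPM in vehicle. Ssr1 and Ssr2, for subunits of the translocon-associated protein complex, had log2 ratios of -0.24 and -0.48 at 24 h over vehicle.

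The gap between long and short transcripts was smaller among treated libraries (0.16 for 24 h over 2 h) than against vehicle, but not absent. The 4 treated libraries were also tested by themselves, with a slope on log2(hours) over 13764 genes. In this test 7 of the 31 genes passed at an adjusted p of 0.05: Eif2ak3 rose, and Pdia4, Manf, Creld2, Sdf2l1, Hyou1 and Herpud1 fell. That is 1 of 31 up, beside 6.98% of all genes, and 6 of 31 down, beside 6.73%. The steepest slopes were those of Sdf2l1 (-0.168, adjusted p = 0.0286 by edgeR), Herpud1 (-0.167, adjusted p = 0.0394) and Manf (-0.131, adjusted p = 0.0176). Hyou1 fell with a slope of -0.114 (adjusted p = 0.0239), Creld2 with -0.109 (adjusted p = 0.0444) and Pdia4 with -0.0871 (adjusted p = 0.044), while Eif2ak3 rose with 0.0962 (adjusted p = 0.0493), all by edgeR. Without the 2 h library none of the 31 passed, without 12 h 3 did, without 6 h 6 and without 24 h 7. Among all genes, 1887 calls in the main run became 1003, 1180, 2528 and 1420 in the same order. With scaling to total counts only, 3 of the 31 passed, beside 1904 among all genes.

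Log2 ratios at 24 h over 2 h were -0.56 for Herpud1 (interval -0.60 to -0.52), -0.52 for Sdf2l1, -0.44 for Manf, -0.40 for Hyou1, -0.36 for Creld2 and -0.32 for Pdia4, the 6 genes that fell. After adjustment for length and GC they were -0.46, -0.40, -0.36, -0.34, -0.27 and -0.34. Of all genes compared, 4.35% had a lower ratio than Herpud1. Hspa5 was at -0.23 and did not pass (adjusted p = 0.206 by edgeR). Other chaperone and degradation genes had ratios above 0 and did not pass, among them Dnajb9 at 0.26, Hsp90b1 at 0.17, Dnajc3 at 0.17, Syvn1 at 0.12 and Canx at 0.10. The median over the 31 genes at 24 h over 2 h was -0.15, and -0.10 after adjustment, against -0.03 over all genes compared, and 20 of 31 lay below 0 against 4747 of 8846.

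**Figure D4:**
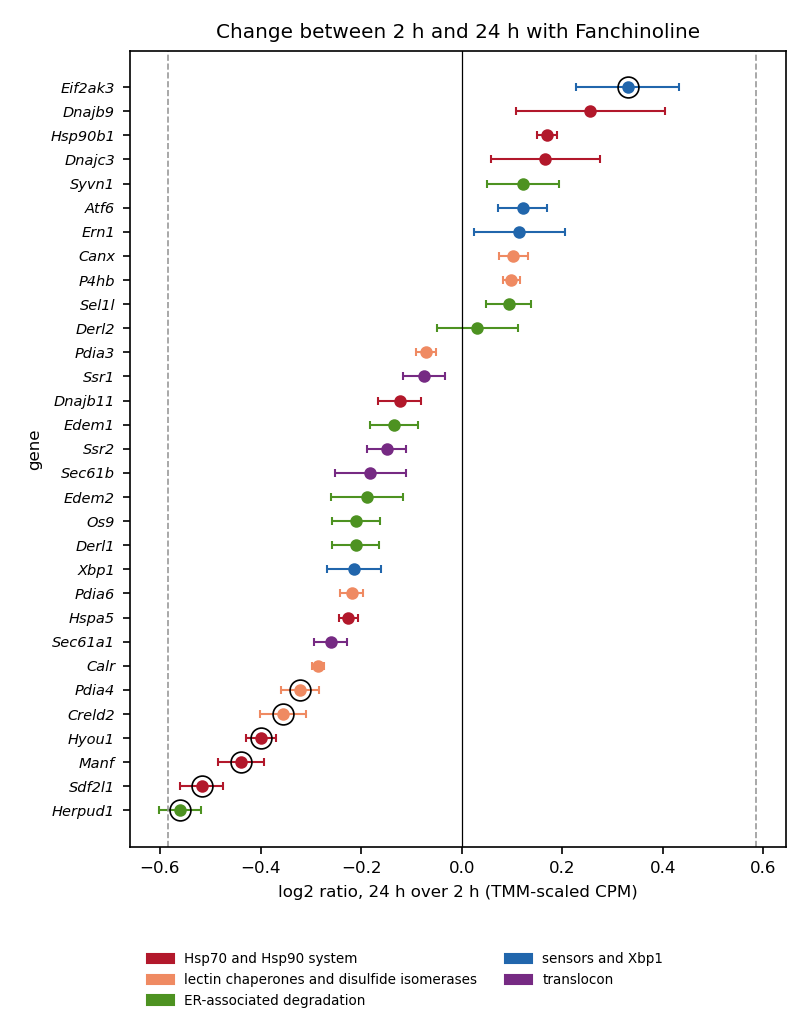
Log2 ratio at 24 h over 2 h with Fanchinoline (x axis) for each of the 31 genes (y axis, sorted and coloured by role), with exact 95% counting intervals; rings mark genes with an adjusted p below 0.05 in the trend over the 4 treated libraries, and dashed lines a 1.5-fold ratio. Herpud1 is lowest (-0.56) and Eif2ak3 highest (0.33), and no gene lies past the dashed lines.

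Genes with and without the element did not part clearly. Median log2 ratios at 24 h over vehicle were -0.34 for the 10 genes with an ERSE or ERSE-II and -0.26 for the 15 with a promoter in the table and neither motif. After adjustment both medians were -0.19. At 24 h over 2 h they were -0.17 and -0.08, with ranges of -0.56 to 0.17 and -0.52 to 0.33 that largely overlap. Herpud1, at the low end, carries ERSE-II, and Sdf2l1, next to it, carries neither motif in its window.

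Beyond the 31 genes, the rest of the pathway showed few differences of 2-fold, and the lists were again chosen by name. Of 14 further genes of N-glycosylation and glycan trimming, 1 was lower by 2-fold at 24 h over vehicle, beside 1.23% of all genes. This was Krtcap2, which encodes a subunit of the oligosaccharyltransferase. Krtcap2 had 94.2 CPM at 24 h and 189.7 CPM in vehicle (log2 ratio -1.01, and -0.74 after adjustment). Krtcap2 was also the 1 gene of the 14 that fell in the trend over 5 libraries (adjusted p = 0.0203 by edgeR), beside 4.05% of all genes tested. Ostc, in the same complex, stood at -0.59 and Mogs, for the first trimming glucosidase, at -0.43. Of 13 translocon and signal peptidase genes none passed 1.5-fold, the lowest being Sec11c at -0.54, then Ssr4 at -0.45 and Tram1 at -0.35; the median was -0.22. In the trend 0 of 13 passed by edgeR, and 3 had an unadjusted p below 0.05, beside 4122 of 13915 genes. After adjustment 2 of the 13 were lower by 1.5-fold, beside 578 of all 8846 genes. They were Sec11c (-0.62) and Sec63 (-0.59), the last named after its value was seen.

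Of 19 compared folding enzymes and co-chaperones, 1 was higher (beside 12.2% of all genes) and 3 were lower (beside 8.87%) by 1.5-fold at 24 h over vehicle. Ero1a, for the oxidase that recharges disulfide isomerases and that low oxygen is also known to induce, had 41.2 CPM in vehicle, 46.7 CPM at 2 h, 75.6 CPM at 6 h, 81.5 CPM at 12 h and 74.9 CPM at 24 h. It was near vehicle at 2 h and higher from 6 h on, at a log2 ratio of 0.86 at 24 h over vehicle (0.76 after adjustment), and it rose in the trend (adjusted p = 0.0301 by edgeR). Fkbp2 (-0.70), Cnpy2 (-0.67) and Erp44 (-0.60) were lower, and none of these 3 passed after adjustment for length and GC (-0.35, -0.42 and -0.44). The 2 genes lower by 1.5-fold after it, beside 578 of all 8846 genes, were Erp29 (-0.73) and Sdf4 (-0.70), named after their values were seen. In the trend over the 23 tested genes of this list 1 rose, beside 5.35% of all genes tested, and 4 fell, beside 4.05%. The 4 were Fkbp2, Cnpy2, Cnpy3 and Pdia5, of which Cnpy3 and Pdia5 are named after their values were seen. Of 20 compared degradation genes 2 were higher, Marchf6 (0.71) and Edem3 (0.67), and 2 lower by 1.5-fold, Aup1 (-0.72) and Ube2j2 (-0.64), the last named after its value was seen. After adjustment none was higher (Marchf6 0.37, Edem3 0.32) and Aup1 did not pass (-0.46), while Ube2j2 (-0.67) and Ubxn4 (-0.59), chosen likewise, were lower. Among all 8846 genes 518 were higher and 578 lower after adjustment. In the trend over 21 genes Edem3 rose, beside 5.35% of all genes tested, and Aup1 and Ube2j2 fell, beside 4.05%.

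Atf4, Ddit3, Trib3 and Ppp1r15a, which act downstream of PERK, were each highest at 2 h and lower at 24 h than at 2 h, whereas Eif2ak3, for PERK itself, was highest at 24 h. Trib3, an ATF4 and CHOP target that dampens the response, had 22.1 CPM in vehicle, 65.5 CPM at 2 h, 35.6 CPM at 6 h, 15.5 CPM at 12 h and 9.96 CPM at 24 h. It passed the 2-fold rule in both directions, at log2 ratios of 1.57 at 2 h (interval 1.45 to 1.69) and -1.14 at 24 h (interval -1.32 to -0.97) over vehicle. Atf4, the transcription factor of this arm, had 521 CPM in vehicle, 660.5 CPM at 2 h, 502 CPM at 6 h, 367 CPM at 12 h and 358 CPM at 24 h. Ddit3, which encodes CHOP, stood at log2 ratios of 0.40 at 2 h and -0.55 at 24 h over vehicle. Ppp1r15a, for the GADD34 phosphatase subunit, stood at 0.30 and 0.15. At 24 h over 2 h Ppp1r15a was only at -0.15, and at -0.02 after adjustment for length and GC. Of the 11 regulators tested in the trend over 5 libraries 0 passed. By edgeR 2 had an unadjusted p below 0.05, beside 4122 of 13915 genes. Over the 4 treated libraries 5 of 11 fell, beside 6.73% of all genes: Atf4, Ddit3, Trib3, Atf6b and Ppp1r15b, the last pair named after their values were seen.

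ATF4 targets as a list, mostly genes of amino acid supply, had larger ratios than the ER genes. Their median log2 ratio over 17 genes over vehicle was 0.40 after 2 h, 0.23 after 6 h, -0.50 after 12 h and -0.83 after 24 h, and -1.40 at 24 h over 2 h. At 2 h over vehicle 5 of 17 were 2-fold higher (Chac1, Trib3, Slc7a5, Slc1a4 and Slc7a1), beside 0.904% of all genes. At 24 h over vehicle 6 were 2-fold lower (Asns, Chac1, Trib3, Slc1a4, Cth and Nupr1), beside 1.23%. Over the 4 treated libraries 16 of 19 fell, beside 6.73% of all genes, and 6 of the 31 ER genes did. Cytosolic and mitochondrial heat shock chaperones had medians over 18 genes of -0.13, -0.10, -0.22 and -0.41 at 2, 6, 12 and 24 h over vehicle. The lowest of them at 24 h were Hspe1 (-0.96), Hspa8 (-0.87) and Hsph1 (-0.71), and 6 of 20 fell over the treated libraries, again beside 6.73%. The lists share libraries, and differences between lists were not tested.

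**Figure D5:**
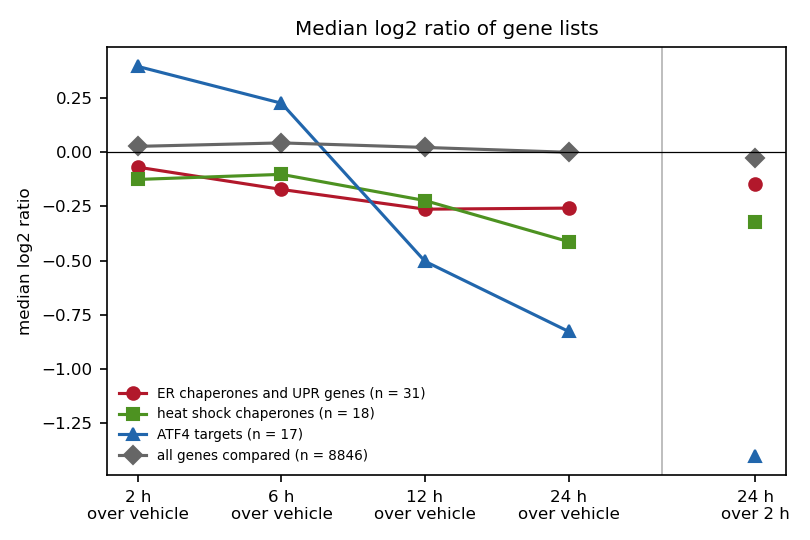
Median log2 ratio (y axis) of the 31 ER genes, 18 heat shock chaperones, 17 ATF4 targets and all 8846 genes compared, at 2, 6, 12 and 24 h over vehicle and, at the right, at 24 h over 2 h. The ER genes run between -0.07 and -0.26 over vehicle, while the ATF4 targets lie at 0.40 at 2 h and at -0.83 at 24 h.

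RNAs that IRE1 is reported to cut when it degrades transcripts other than Xbp1 made up a list of 6. At 24 h over vehicle 5 of 6 were below 0, with a median of -0.18 and -0.02 after adjustment for length and GC. Erp44, for a thioredoxin-like retention factor, was lowest at -0.60, and its gap to vehicle was already present at 2 h (-0.58). Ergic3 stood at -0.20 and Itgb2, for the integrin beta chain of leukocytes, at 0.24. None passed the trend over 5 libraries by edgeR, and 1 had an unadjusted p below 0.05, beside 4122 of 13915 genes.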

How the data were processed

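Poly-A RNA of MutuDC cells was sequenced at vehicle (0 h) and at 2, 6, 12 and 24 h with Fanchinoline, with libraries from a TruSeq kit that does not mark strand, per the labels' protocols. The authors deposited raw counts per gene in 1 column for each time point. Trim Galore, HISAT2 and build GRCm38 appear, without versions, in the submitters' processing notes. The sources used here give neither the counting program and annotation nor whether the triplicates of the design text were pooled. Replicates could therefore not be compared, and p-values measure only scatter around a line over time.

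Counts were scaled with edgeR 4.0.16 (TMM) to log2 CPM with a prior count of 2 (R 4.3.3). The comparison took genes that reached 10 CPM (328 to 427 counts) in any library. Each ratio of 2 counts has an exact 95% interval (Clopper-Pearson), which covers counting error only; 3 counts, the limit a count of 0 allows, were 0.0703 to 0.0915 CPM. The trend test had 3 residual degrees of freedom and was tested on simulated data. The 5-library slope is the main trend test and the 4-library slope another setting of it; repeats of the 4-library slope were chosen after seeing the data. DESeq2 1.42.0, other scalings, filters and left-out libraries were also tried. Lengths, GC content (mgcv 1.9.3 fit) and overlaps came from GENCODE's annotation on GRCm38. Of the 31 genes, 11 share exon bases with another gene, none over 20%.

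The 31 genes and all lists were chosen with earlier results of these data known. Named are all 31, from each further list up to 3 genes with the largest log2 ratio in size at 24 h over vehicle plus any past the 2-fold rule, and Atf4, Ddit3, Trib3 and Ppp1r15a.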

Additional observations from a re-analysis of the deposited data

How the results depend on the processing

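No slope called in a trend test changed sign in any alternative run. No ratio of the 31 genes was called in the main setting, so a turned call could not occur among the ratios. Some uncalled ratios did change sign after adjustment for length and GC. Among them at 24 h over vehicle were Hyou1 (0.13 to -0.10) and Edem1 (0.13 to -0.21). Counts of the 31 genes past the size rule, 0 in each comparison, with a limit of 1.5-fold over vehicle became 3 after 2 h and 6 h alike, 5 after 12 h and 6 after 24 h, and 1 at 24 h over vehicle with scaling to total counts only (Ern1, log2 ratio 1.05). Medians over the 31 genes adjusted for length and GC were -0.10 at 6 h, -0.18 at 12 h and -0.16 at 24 h over vehicle, and -0.10 at 24 h over 2 h; with total counts only they were -0.16 at 24 h over vehicle and -0.071 at 24 h over 2 h. The count of 2 genes in the 5-library trend, beside 1309 among all genes, became 13 with DESeq2's Wald test, beside 2449. It became 4 with total counts only, beside 1491, and 7 without vehicle, beside 1887. With no filter on low counts and with time in hours it was 0, and 0 among all genes too. Leaving out 1 treated library gave 0 to 9, beside 0 to 2205. The count of 7 in the 4-library trend, beside 1887 among all genes, became 3 with total counts only, beside 1904. With 1 library left out it was 0 to 7, beside 1003 to 2528. Both low ends, 0 and 1003, were without 2 h. The cause of these differences was not tested. Some of these settings also used fewer libraries. No paired analysis was possible because each time point has 1 library. Depth limits little here, since the lowest count of any of the 31 genes in any library was 648 (Dnajb9 at 2 h). The absent replicates limit every comparison.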
